A study of Mus musculus with 4 samples.

Results

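The genes described here are 38 DNA damage repair genes, chosen by symbol as every non-control probe that carried a listed gene name, which gave 52 of the 39429 probes and 38 of the 30175 gene names on the array. They fall into 4 classes: 19 genes of base excision repair, 5 of end joining, 8 of homologous recombination and 6 others. RNA came from NIH-3T3:Per2-Luc, a clock reporter line of mouse embryonic fibroblasts in which the Per2 promoter drives luciferase. Control cells (0 mM H2O2) received fresh medium and are labelled 4 h, whereas the other cells were collected 4 h, 20 h or 32 h after a pulse of critical oxidative stress (cOS-pulse), that is, 5 mM H2O2 for 10 min. Each condition was measured on 1 one-color array and all carry the reporter. Without replicates no difference could be tested, and none carries a p-value. The late arrays also differ from the control in the hour of collection, which cannot be told apart from the treatment.

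H2O2 oxidizes the bases and breaks the strands of DNA. In base excision repair, a glycosylase removes the damaged base, an endonuclease cuts the backbone, and a polymerase and a ligase fill and seal the gap, with poly(ADP-ribose) polymerases sensing the nick. Double-strand breaks are either rejoined directly by end joining or copied from the sister chromatid by homologous recombination, which works in cells that have replicated their DNA.

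Levels are given on a log2 scale on which 0 is the 75th percentile of the array, and a ratio is the difference of such levels. A level of one probe cannot be set against that of another probe, so only ratios are compared between genes. Where 4 levels are listed, they belong to the control, 4 h, 20 h and 32 h, in this order. The ± beside a ratio is the error that the scanner software gives for both spots. It was 0.21 at the median over the members at 4 h and leaves out the spread between cultures. For comparison, the log2 ratios of all genes between 20 h and 32 h had a robust spread of 0.14. A probe counted as detected when the software placed it well above background, and 35 of the 38 members were detected on all 4 arrays, Palb2 on 3, and Neil2 and Brca1 on none. All 10 fibroblast markers were detected on the 4 arrays, while among markers of other cell types Ptprc, Epcam and Cdh1 were detected on none, Cd68, Cd3e, Pecam1 and Syp on all 4, and Cdh5, Krt5, Alb and Gfap on some. The number of arrays limits the precision, and for dim probes the closeness to background does too.

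At 4 h after cOS-pulse the repair genes were mostly lower than in the control. At least 2-fold lower were 12 of the 36 members with a ratio (33.3%), beside 8.21% of the 18616 genes detected on either array. At least 2-fold higher was no member, beside 11% of all genes. With a 1.5-fold limit, 18 members (50%) were lower and 4 (11.1%) higher, against 16.2% and 24.3% of all genes. The median log2 ratio was -0.53 over the 35 measured members (-0.60 with the bound of Palb2 included) and 0.17 over the 15806 genes measured. The median was -0.44 in base excision repair, -0.90 in end joining, -1.11 in homologous recombination and -0.74 in the other class. These class differences rest on 5 to 18 measured genes each and were not tested.

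The ratios at 4 h depend on how the arrays are scaled, because the median of all genes moved between -0.23 and 0.17 over the scalings tried. Of the genes called 2-fold different, 57.3% were higher with the 75th percentile and 26.3% with the spike-in probes. With spike-in scaling, 18 members were 2-fold lower and none higher, beside 15.8% and 5.62% of all genes. The median of the members lay -0.70 from that of all genes, a difference that a constant per array cannot change, and -0.60 from it with quantile normalization. All 12 lower members were at least 2-fold lower under each of the 7 other scalings, all of which gave a lower median of all genes. Of the 36 members, 27 lay below the control under all of them. With the 75th percentile, 26 of the 35 measured members and 6250 of the 15806 measured genes lay below it. The share of all genes below it under every scaling was not computed. With another background correction (normexp, offset 50), 6 of the 12 stayed 2-fold lower, namely Neil1, Nudt1, Xrcc6, Prkdc, Rad50 and Brca2.

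**Figure D1:**
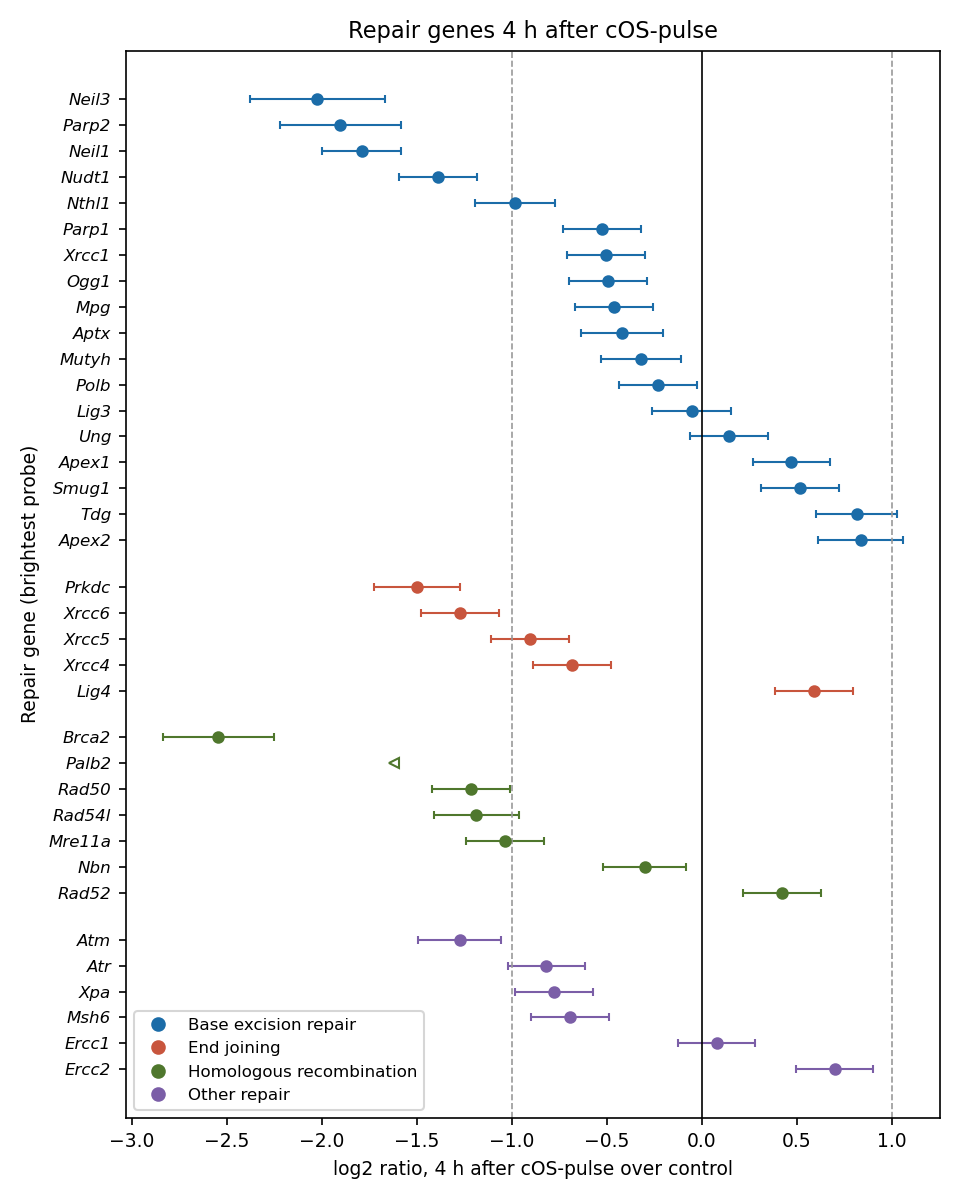
Log2 ratio of 4 h after cOS-pulse over the control for the 36 repair genes with a ratio, by class, with the spot error of the scanner software as bars; dashed lines mark 2-fold and the open triangle is a bound. 12 genes lie at or beyond the lower line, down to Brca2 at -2.54, and none reaches the upper line.

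Among the glycosylases, which find the damaged base, the enzymes for oxidized pyrimidines stood lowest. Neil1, which also acts on single-stranded and replicating DNA, had levels of -0.35 in the control, -2.14 at 4 h, 0.00 at 20 h and -0.10 at 32 h. The 4 h array alone was low, with a ratio of -1.79 ± 0.21 or 3.46-fold, and the gene's other probe gave -1.39. Neil3, a glycosylase expressed mainly in dividing cells, had levels of -2.54, -4.56, -2.64 and -3.23. Its ratio at 4 h was -2.02 ± 0.36 (4.06-fold lower), while it stood at -0.10 ± 0.23 at 20 h and at -0.69 ± 0.26 at 32 h. Nthl1, a further glycosylase for oxidized pyrimidines, had levels of -0.80, -1.78, -0.59 and -0.67. Its ratio at 4 h of -0.98 ± 0.21 lay just short of 2-fold.

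The enzymes for 8-oxoguanine, the main oxidized purine, differed less. Ogg1, which cuts this base out, had levels of -0.70 in the control, -1.19 at 4 h, -0.27 at 20 h and -0.44 at 32 h. Its ratio was -0.49 ± 0.21 at 4 h and 0.43 ± 0.21 at 20 h, so that it lay on either side of the control. Mutyh, which removes adenine paired with 8-oxoguanine, read -1.83, -2.15, -1.69 and -2.0, and its ratio at 4 h was -0.32 ± 0.21. In contrast, Nudt1, which hydrolyzes oxidized guanine nucleotides before they enter DNA, had levels of 1.52, 0.13, 1.65 and 1.69. The low value at 4 h gave a ratio of -1.39 ± 0.20 (2.62-fold), and its other detected probe gave -1.46.

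The glycosylases for uracil and thymine did not share this direction, while that for alkylated purines lay below the control on its brightest probe. Tdg, which removes thymine and uracil from mispairs with guanine, had levels of -2.06 in the control, -1.24 at 4 h, -1.96 at 20 h and -2.04 at 32 h. All 3 of its probes were higher at 4 h, by 0.63 to 0.85, with 0.81 ± 0.21 on the brightest. Smug1, another uracil glycosylase, read -0.71, -0.19, -0.82 and -0.53, a ratio of 0.52 ± 0.21 at 4 h. Other scalings brought the Smug1 ratio down to 0.12, within the error. Mpg, the glycosylase for alkylated purines, read 0.42, -0.05, 0.41 and 0.41, a ratio of -0.46 ± 0.20. The other probe of Mpg gave -0.19 ± 0.22 at 4 h, within the error, and -0.47 at both 20 h and 32 h. Ung, the main uracil glycosylase, read 3.94, 4.08, 4.30 and 4.40. Its ratio at 4 h, 0.14 ± 0.20, was within the error and fell below 0 under 6 of the 7 other scalings. The only probe of Ung (mm9 chr5:114588731-114588790, plus strand) ends in a GT repeat that fills 34 of its 60 bases. A run of 12 or more such units, on either strand, was found in 46 probes of the array, and how far it bears on the Ung signal was not tested. For Neil2, the probe stayed at background throughout and gave no ratio.

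Downstream of the glycosylases, the endonucleases read higher, by an amount that depends on the scaling. Apex1, the main enzyme that cuts at the abasic site, had levels of 2.07, 2.54, 1.92 and 1.82, a ratio of 0.47 ± 0.20 at 4 h. For Apex1 the scalings tried gave 0.07 to 0.47, the lowest within the error. Its relative Apex2 had levels of -2.48, -1.64, -2.77 and -2.69, a ratio of 0.84 ± 0.22, the highest of any member. For both, the 4 h array was above the other 3. The gap-filling polymerase Polb (-0.83, -1.06, -0.72 and -0.64, ratio -0.23 ± 0.21) and the ligase Lig3 (-1.16, -1.22, -1.10 and -1.30, ratio -0.05 ± 0.21) stayed near the control, although the other probe of Lig3 gave -0.56. Xrcc1, the scaffold that binds Lig3, had levels of 2.47, 1.96, 2.63 and 2.53, a ratio of -0.50 ± 0.20. Aptx, which cleans blocked 5' ends at nicks, had levels of -1.94, -2.36, -2.03 and -1.83, a ratio of -0.42 ± 0.22.

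The poly(ADP-ribose) polymerases differed from each other. Parp2 had levels of -2.25 in the control, -4.15 at 4 h, -2.33 at 20 h and -2.53 at 32 h, and its ratio at 4 h was -1.90 ± 0.32 (3.74-fold lower). Parp1, which makes most of the polymer, had levels of -0.38, -0.91, -0.56 and -0.62, and its ratio was -0.53 ± 0.21. The 2 probes are printed here because the annotation of the array spreads the 60 bases of each over a longer stretch. That stretch is 299 bases of chr1:182530341-182530639 for Parp1 and 232 bases of chr14:51439134-51439365 for Parp2 (mm9, plus strand). An exon junction in each is inferred from these spans, as exon positions were not determined. The sequences show that different stretches of transcript were read for these related enzymes.
Parp1: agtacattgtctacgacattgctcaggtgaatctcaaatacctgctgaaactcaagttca
Parp2: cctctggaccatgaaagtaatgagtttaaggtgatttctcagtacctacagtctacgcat

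In end joining, the subunits of the DNA-dependent protein kinase, which holds the broken ends, were the lowest of the 5 genes. The catalytic subunit Prkdc had levels of -1.55, -3.05, -1.18 and -1.40 in this order, a ratio of -1.50 ± 0.23 at 4 h (2.82-fold). The Ku subunits, which form the ring around the end, were lower as well. Xrcc6 (Ku70) had levels of 1.47, 0.20, 1.43 and 1.31, a ratio of -1.27 ± 0.20. Xrcc5 (Ku80) had levels of 0.95, 0.05, 1.37 and 1.36, a ratio of -0.90 ± 0.20, followed by 0.42 ± 0.20 at 20 h and 0.41 ± 0.20 at 32 h. The ligation step was divided. Xrcc4, the partner of the ligase, had levels of -0.56, -1.25, -0.62 and -0.64, a ratio of -0.68 ± 0.21. The ligase Lig4 itself had levels of -0.75, -0.16, -0.59 and -0.17, a ratio of 0.59 ± 0.21 at 4 h and 0.58 ± 0.21 at 32 h. At 4 h its ratio fell as low as 0.19 with other scalings, within the error, but stayed above 0. Lig4 was thus the only one of the 5 above the control at 4 h. The probes of Xrcc5 (chr1:72430014-72430320) and Prkdc (chr16:15839317-15841922, both mm9, plus strand) are also annotated over more than their own length, 307 and 2606 bases. They are printed as the probes that read the protein kinase.
Xrcc5: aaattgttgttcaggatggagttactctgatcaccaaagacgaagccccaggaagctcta
Prkdc: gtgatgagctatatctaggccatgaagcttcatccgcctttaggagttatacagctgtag

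Homologous recombination held the largest difference of any member. Brca2, which loads the recombinase onto single-stranded DNA, had levels of -1.78, -4.33, -1.76 and -2.14. Its ratio at 4 h was -2.54 ± 0.29 (5.83-fold lower, probe at mm9 chr5:151372225-151372284, plus strand). The level at 4 h lay near the lowest detected on that array, -4.94, which limits the precision of this ratio. Palb2, which joins Brca2 to Brca1, had levels of -3.32, -5.50, -3.48 and -3.84. It was not well above background at 4 h, so that it was at least 3.07-fold lower, a bound of -1.62 on the log2 scale. Rad54l, a motor protein that helps the strand exchange, had levels of -1.45, -2.63, -1.28 and -1.75, a ratio of -1.19 ± 0.22. The 4 h array was the lowest for all 3 genes.

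The complex that first binds and trims the broken end was unequal. Its nuclease Mre11a had levels of -0.08, -1.12, -0.21 and -0.62, a ratio of -1.04 ± 0.21, and its tether Rad50 had 0.64, -0.57, 0.66 and 0.56, a ratio of -1.21 ± 0.20 with -1.13 on the other probe. The signaling subunit Nbn had levels of -1.88, -2.19, -2.13 and -2.24, a ratio of -0.30 ± 0.22 that differed little from its ratio of -0.36 ± 0.22 at 32 h. Rad52, an annealing protein, was the only measured member of the class above the control, with levels of -0.27, 0.15, -0.26 and -0.25 and a ratio of 0.42 ± 0.20. This ratio fell as low as 0.02 with other scalings, within the error. Brca1 had no ratio, since none of the arrays lifted its probe above background.

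Among the others, the kinases that signal damage were lower. Atm, activated by double-strand breaks, had levels of -1.59, -2.87, -1.33 and -1.51, a ratio of -1.27 ± 0.22, with -0.86 on its other probe. Atr, activated by single-stranded DNA, had levels of 1.16, 0.34, 1.16 and 0.90, a ratio of -0.82 ± 0.20. Msh6, which recognizes mismatched bases, had levels of 3.01, 2.32, 2.88 and 2.82, a ratio of -0.69 ± 0.20. The nucleotide excision genes did not move alike. Xpa, which checks the lesion, had levels of 1.81, 1.03, 2.04 and 2.06, a ratio of -0.78 ± 0.20, with -1.04 on its other probe. The helicase Ercc2 had levels of 1.5, 2.19, 1.33 and 1.32, a ratio of 0.70 ± 0.20. The nuclease subunit Ercc1 had levels of 1.5, 1.58, 1.09 and 0.92. Its ratio at 4 h, 0.08 ± 0.20, was within the error and fell below 0 under 6 other scalings, whereas at 32 h it was -0.58 ± 0.20.

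**Figure D2:**
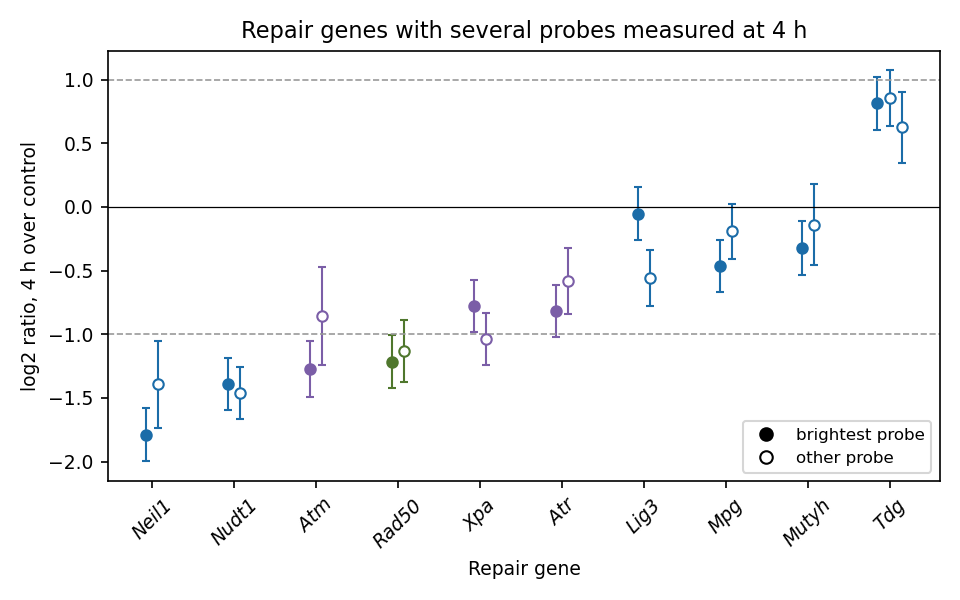
Log2 ratio of 4 h over the control for every measured probe of the 10 repair genes with several such probes, filled for the brightest probe and open for the others, with the spot error of the scanner software. The probes of each gene lie on the same side of 0 and differ by at most 0.50.

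Different probes of a gene gave the same direction at 4 h in 10 of 10 genes that had several measured probes, and their ratios differed by 0.25 at the median and by 0.50 at most, in Lig3. The probes share the RNA and the array, so that this compares probes and not cultures. Another 26 members had 1 probe each, and Smug1 and Palb2 each had a further probe that was not well above background.

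At 20 h and 32 h all members with a ratio were back within 2-fold of the control. At 20 h all 36 ratios lay between -0.41 and 0.43, with a median of 0.01, and no member was 2-fold higher or lower, beside 1.44% and 3.51% of all genes. At 32 h they lay between -0.69 and 0.58, with a median of -0.08, and again none was 2-fold away, beside 2.24% and 2.77% of all genes. Homologous recombination had a median of 0.01 at 20 h, with 3 of 7 genes below the control. At 32 h its median was -0.36, with 6 of 7 genes below the control. Of all genes measured at 32 h, 7733 of 15451 were below it. The 32 h medians were 0.04 in base excision repair, 0.15 in end joining and -0.18 in the other class. The 12 members that were 2-fold lower at 4 h had ratios between -0.16 and 0.37 at 20 h. All comparisons share the same control array. Of the 35 members detected on all arrays, 24 were lowest at 4 h and 8 highest at 4 h, while among all such genes 33.4% were lowest and 51.4% highest there.

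**Figure D3:**
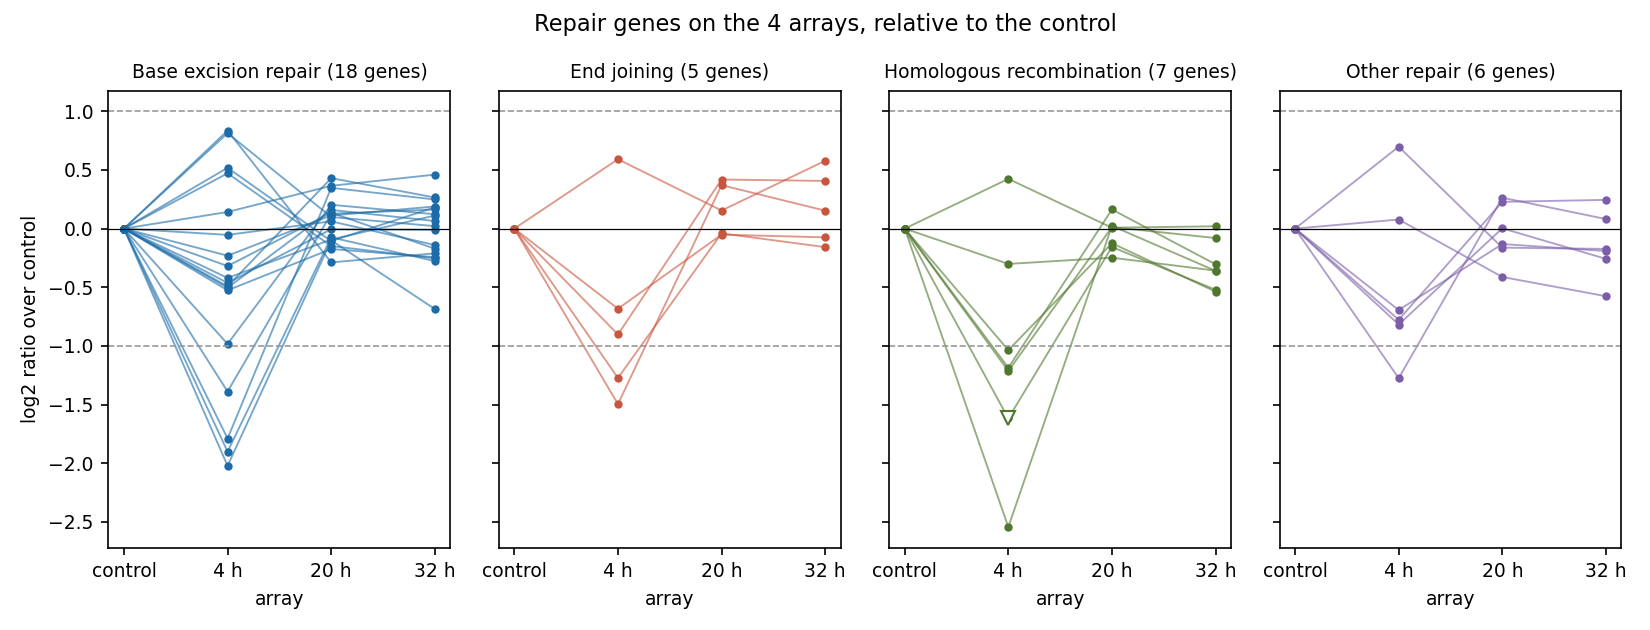
Log2 ratio over the control on the 4 arrays for each repair gene, 1 line per gene and 1 panel per class; dashed lines mark 2-fold and the open triangle is the bound of Palb2. The lines spread at 4 h, between -2.54 and 0.84, and return to within 2-fold of the control at 20 h and 32 h.

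Between the late arrays the differences were small. No member differed by 2-fold between 20 h and 32 h, beside 0.926% of all genes higher at 20 h and 2.06% lower. The median ratio of 20 h over 32 h was 0.37 over the 7 homologous recombination genes and 0.08, 0.02 and 0.11 over base excision repair, end joining and the others, with 0.00 over all genes. It was 0.19 over 17 further genes of homologous recombination and 0.22 over 16 markers of proliferation, both lists described below. Rad54l was higher at 20 h by 0.47 ± 0.21, Mre11a by 0.41 ± 0.21, Brca2 by 0.38 ± 0.21 and Palb2 by 0.37 ± 0.29. The largest such ratio was that of Neil3, 0.59 ± 0.26, and the lowest that of Lig4, -0.42 ± 0.20. The robust spread given above covers these same arrays, and no repeat of either hour was at hand.

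Other genes of the same pathways, from a list of 70 on the array, were also mostly lower at 4 h. Of the 68 detected, 22 (32.4%) were at least 2-fold lower and 4 (5.88%) at least 2-fold higher, with a median of -0.56. The shares of all genes, against which the class counts below can also be read, were 8.21% lower and 11% higher. In homologous recombination 9 of 17 were 2-fold lower, among them Xrcc2, a recombinase paralog (-2.08), Rad51ap1, which aids strand exchange (-1.95), Bard1, the partner of Brca1 (-1.90), and the resecting nuclease Exo1 (-1.62). In base excision 7 of 16 were lower, among them the replicative polymerase subunits Pold2 (-1.85), Pold1 (-1.70) and Pole (-1.55), while Alkbh1, a demethylase, was 1.72 higher. Lower bounds were found for Pms1, a mismatch repair protein (at least 6.59-fold lower), and Ube2t, an enzyme of crosslink repair (at least 2.85-fold lower). In end joining 1 of 8 was lower (12.5%, near the share of all genes). In excision of bulky lesions and mismatches 3 of 16 were lower and 3 higher, and in crosslinks and tolerance 2 of 11 were lower.

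Markers of proliferation stood beside these values. Of 16 detected, 10 were at least 2-fold lower at 4 h, with a median of -1.12, from Ccnb1 at -2.80 to Tyms at 0.40, and at 20 h and 32 h their medians were -0.28 and -0.53. Their part in the repair gene values was not tested. In RNA of whole cultures, fewer dividing cells and less RNA per cell cannot be told apart. Of the 12 markers of other cell types, 8 were detected on either array at 4 h. All 5 measured ones lay above the control, with a median of 0.71, beside 0.17 over all genes. Among them were the macrophage marker Cd68 at 2.08 and the endothelial marker Cdh5 at 1.87.

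The class medians at 4 h moved with the scaling, that of homologous recombination from -1.51 to -1.11 and that of base excision repair from -0.84 to -0.44. Their order can change only under quantile normalization, since the other scalings subtract 1 constant per array, and there the medians were -1.13 in homologous recombination, -0.90 in end joining, -0.81 in the other class and -0.49 in base excision repair. With normexp, end joining stood lowest, at -0.90 against -0.84 for homologous recombination.

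**Figure D4:**
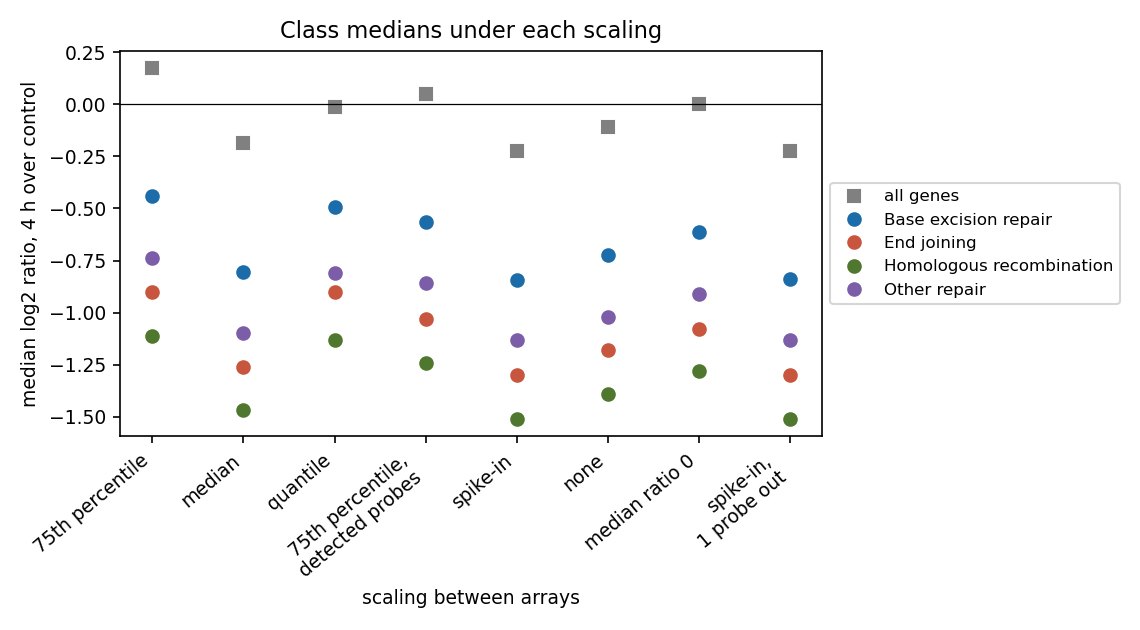
Median log2 ratio of 4 h over the control for each class and for all genes (squares) under the 8 scalings between arrays. The median of all genes lies between -0.23 and 0.17, and the class medians lie below it under each scaling.

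Promoters were searched for short motifs as a description. RefSeq (GRCm38.p6) held the 250 bases before the start for 32 of the 38 members, and CCAAT (the NF-Y box), CCGGAAG (ETS), TTTCCCGC and TTTGGCGC (E2F), GCATGCG (NRF1) and TGACNNNGC (the core of the antioxidant response element) were sought on both strands. CCAAT was in 18 members (56.2%), and in 37.5% of all 27025 genes with a promoter. The shares for CCGGAAG were 18.8% and 7.83%, for GCATGCG 15.6% and 3.43%, for TGACNNNGC 15.6% and 11.5%, and for TTTCCCGC 6.25% and 1.03%, and TTTGGCGC was in no member and in 0.485% of genes. Of the 10 members with a promoter that were 2-fold lower at 4 h, 4 held CCAAT, beside 13 of the 21 that were not, while TGACNNNGC was in 4 of the 10 and in 1 of the 21. Both members with TTTCCCGC, Brca2 and Xrcc6, were among the 10. A match is not a bound site, and with these counts no difference was tested. The promoters of Brca2 and Parp2, among the lowest at 4 h, and of Tdg and Ercc2, among the highest, are printed with the matches in capitals, 5' to 3' on the strand of the gene (all plus): chr5:150522371-150522620, chr14:50807666-50807915, chr10:82629588-82629837 and chr7:19381767-19382016. They show TTTCCCGC and TGACNNNGC in Brca2, GCATGCG in Parp2, CCAAT in Tdg and 3 copies of CCAAT in Ercc2, a match to the opposite strand appearing as its reverse complement.
Brca2: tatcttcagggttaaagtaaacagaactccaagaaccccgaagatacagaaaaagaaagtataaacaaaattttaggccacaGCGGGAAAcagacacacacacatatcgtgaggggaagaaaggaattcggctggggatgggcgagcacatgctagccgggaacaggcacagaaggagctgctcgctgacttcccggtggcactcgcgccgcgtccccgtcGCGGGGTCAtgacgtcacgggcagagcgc
Parp2: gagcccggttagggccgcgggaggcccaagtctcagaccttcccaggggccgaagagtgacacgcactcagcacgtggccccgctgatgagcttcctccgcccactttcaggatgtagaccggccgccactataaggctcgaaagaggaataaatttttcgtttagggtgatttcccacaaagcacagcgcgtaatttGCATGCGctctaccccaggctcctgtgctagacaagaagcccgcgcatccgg
Tdg: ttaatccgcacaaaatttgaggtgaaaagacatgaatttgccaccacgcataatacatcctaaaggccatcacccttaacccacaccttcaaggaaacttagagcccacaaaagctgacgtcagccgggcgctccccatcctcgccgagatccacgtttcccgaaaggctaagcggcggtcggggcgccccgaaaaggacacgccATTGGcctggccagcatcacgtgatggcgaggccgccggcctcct
Ercc2: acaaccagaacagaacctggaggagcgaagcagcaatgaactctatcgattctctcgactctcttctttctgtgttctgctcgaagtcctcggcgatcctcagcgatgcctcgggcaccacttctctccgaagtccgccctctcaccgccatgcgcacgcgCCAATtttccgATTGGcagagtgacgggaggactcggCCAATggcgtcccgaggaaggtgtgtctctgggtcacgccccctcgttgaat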

How the data were processed

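Total RNA of 4 samples, 1 per condition, was hybridized to one-color arrays. The authors deposited, for each spot, an intensity from Agilent Feature Extraction 10.7.3.1 (per the submitters' processing notes), with the background subtracted and with the software's error and detection flag. They also deposited a table that proved to be the same signal divided by 1 constant per array. Probe positions are those of mm9 in the deposited files. Exon and intron annotation was not analysed here.

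From the deposited intensities, a mean log2 value was taken for each of 39429 probes, leaving out 125 to 161 outlier-flagged spots per array, and scaled by subtracting the array's 75th percentile. Detection required the software's flag for signal above background on at least 50% of the spots. Each gene was read by its brightest probe, the one with the highest mean over the 4 arrays. A ratio needs detection on both arrays. With detection on 1, a bound was taken against the lowest detected signal of the dim array, or against the dim signal itself where that was higher. Calls used 2-fold, and shares of all genes are over genes detected on either array. No test was run, since there was 1 array per condition, and SAM, which the methods name, was not repeated.

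The members and the gene lists were chosen with earlier results of these data known. All 38 members are named, with at most 10 of the other repair genes, taken by size among those at least 2-fold from the control, and marker genes only as examples.

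Alternatives were other scalings (median, quantile, 75th percentile of detected probes, 8 spike-in probes, none, ratios centred on all genes), normexp with an offset of 50 (limma 3.58.1, R 4.3.3), other detection rules, flagged spots kept, other probe rules, 1.5-fold and 3-fold limits, and the deposited table. Spike-in scaling without 1 probe was added after seeing the data. To check that the ratio step ran as written, 4-fold changes were put into a simulated copy of the control array. Of these changed probes among 39428, 200 of 200 were recovered. The changed probes were detected and not dim, and the added noise was smaller than the spot error. Changes of 4-fold were thus bound to pass the 2-fold limit. The check does not bear on dim probes or on the spread between arrays. Python 3.11.15, numpy 2.4.6 and pandas 2.3.3 were used.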

Additional observations from a re-analysis of the deposited data

Results flagged for a closer look

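Ratios on opposite sides of the control at 4 h and later, each by more than the spot error, were found for 8 members. The share of all genes with such ratios was not computed, so this count has no background to be read against. Above the control later and below it at 4 h were Ogg1 (0.43 at 20 h and 0.27 at 32 h, against -0.49 at 4 h), Neil1 (0.35 and 0.25, against -1.79), Xrcc5 (0.42 and 0.41, against -0.90), Xpa (0.23 and 0.24, against -0.78), Prkdc (0.37 at 20 h, against -1.50) and Atm (0.26 at 20 h, against -1.27). Below the control later and above it at 4 h were Apex1 (-0.25 at 32 h, against 0.47) and Apex2 (-0.29 at 20 h, against 0.84). These are ratios of the brightest probes. The other probes of Neil1 (0.04 at 20 h and 0.05 at 32 h), Xpa (-0.03 and 0.05) and Atm (0.13 at 20 h) lay within their spot errors at these times. The remaining members named here had 1 probe each. With 1 array per condition, the difference between the time points was not tested. The opposite signs were kept under all 7 other scalings, with the exception of Apex2, which kept them under 6. All 7 gave a lower median of all genes at 4 h. Over the scalings that median ranged from -0.02 to 0.33 at 20 h and from -0.01 to 0.18 at 32 h. For members below the control at 4 h and above it later, the scalings could thus hardly remove the opposite signs, and no conclusion is drawn from their being kept.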

How the results depend on the processing

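No paired analysis was possible because each condition had 1 array, and for the same reason no array could be left out. Of the list medians and counts under the 16 alternatives, 202 values stayed close to the reported ones and 38 moved. As reported, the medians of all members at 20 h and 32 h lay within 0.14 of 0, and they changed sign under some scalings. Of the values of single members, 1818 stayed within the spot error and 197 moved, and no 2-fold difference reversed. A list median was taken as moved beyond 0.14, the robust spread between 20 h and 32 h, and a count beyond 1.5 times. The medians at 4 h over all members, base excision repair, end joining, homologous recombination and the others became -0.887, -0.803, -1.26, -1.47 and -1.1 with median scaling, -0.925, -0.841, -1.3, -1.51 and -1.13 with the spike-in probes (-0.923, -0.838, -1.3, -1.51 and -1.13 without 1 of them), -0.807, -0.723, -1.18, -1.39 and -1.02 without scaling, and -0.699, -0.615, -1.08, -1.28 and -0.909 with the ratios centred on all genes. By construction, each scaling except quantile normalization subtracts 1 constant per array and shifts the ratios of all genes together. The medians of all members at 20 h and 32 h became 0.208 and 0.0736 with the spike-in probes (0.0873 and -0.0748 without 1 of them) and 0.342 and 0.101 without scaling, where 20 h over 32 h became 0.248. With normexp, whose offset draws the ratios of dim probes towards 0, 6 members in place of 12 were 2-fold lower at 4 h, and the median of homologous recombination was -0.842. Without a detection filter, 1 member was 2-fold lower at 20 h and 1 at 32 h, since probes that were not well above background then entered. At 4 h, 4 members were higher by 1.5-fold, beside 24.3% of all genes, and 5 were lower by 3-fold. The share of all genes lower by 3-fold was not computed. By 1.5-fold, 1 member (2.78%) was lower at 32 h, beside 7.12% of all genes. Also by 1.5-fold, 1 member (2.78%) was higher at 20 h than at 32 h, beside 1.89% of all genes. Changes of this size in dim members such as Brca2, Neil3, Parp2 and Palb2 lie near the background at 4 h, which limits their precision.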
